A study of Mus musculus with 3 samples.

Results

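Genes in the mouse genome often overlap, so that 1 stretch of DNA lies inside the annotated spans of several genes. A peak on such a stretch cannot be credited to a single gene without the strand of the RNA. The peaks described here are those of a Tet2 CLIP experiment whose midpoint lay in at least 2 RefSeq gene spans, at least 1 of them protein-coding. They numbered 535 of 8196 peaks (6.53%), with 190, 194 and 151 in replicates 1, 2 and 3. The position of a peak chose them, and its height or recurrence did not. Another 26 peaks lay in over 1 span with no protein-coding gene among them, and these were set aside. None of the 535 peaks lay in Xist.

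CLIP joins a protein to the RNA it touches with ultraviolet light, pulls the protein down and reads the RNA that comes with it. Here the antibody was against endogenous Tet2, an enzyme that oxidises 5-methylcytosine, in bone marrow derived mast cells of the mouse strain C57BL/6. The cells carried FcεRI and c-Kit at a purity above 97.5%. SCF at 5 ng/ml and IL-3 at 10 ng/ml were in the medium, and irradiation was at 400 and then 200 mJ per square centimetre. There were 3 replicate libraries of 1 group and no comparison of conditions, and no library of input or of another antibody entered the analysis. Heights are given in units of the fixed step of which all deposited heights of a library are whole multiples. The libraries held 3019, 2800 and 2377 peaks with summed heights of 19213, 18270 and 15431 units. No source used here says whether a unit is 1 read. Of the mast cell markers listed as coding genes, 8 of 12 held a peak of any kind, with 1 of 5 for macrophages, 0 of 4 for neutrophils, 0 of 3 for lymphocytes and 0 of 3 for erythroid cells. Over all protein-coding genes, 3086 of 21900 held a peak, so lists this short cannot show that another cell type was absent.

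Overlapping genes come in a few arrangements. In a head-to-head pair the genes start near each other and run apart on opposite strands, and their starts overlap. In a tail-to-tail pair the genes run towards each other and their ends overlap. In a nested pair a whole gene, often a small RNA or a long non-coding RNA (lncRNA), sits inside another, frequently in an intron. Some lncRNA and readthrough entries share the strand and even the start of the coding gene they overlap.

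Of the 535 peaks, 57 (10.7%) had their midpoint in a RefSeq promoter window, the stretch from 250 bases before to 50 after an annotated start on GRCm38.p6 (the assembly behind mm10). In exactly 1 coding span, 326 peaks (4.94%) did. These shares are not a like comparison, because the 250 bases before the outermost start of a gene lie outside its own span. Inside an overlap those bases can lie in the partner gene, whose starts add windows of their own. The share of bases in windows was not computed, and the difference was not tested. Sequence for 5 of the loci found in all 3 libraries could be read from these windows. The 30 bases shown for each lie inside the interval common to the 3 libraries, or around it for 4930581F22Rik, where that interval was the 15th base alone. They are given so that the sequence under recurrent peaks near annotated starts can be seen. For Chst15, 1700049J03Rik and Uros the start is an internal one of the gene. Capitals mark CG dinucleotides, and each stretch is written 5′ to 3′ on the strand of the gene named.
Pim1 (overlaps Gm26885; chr17:29490805-29490834, plus strand): CGgCGgaggaggctggaggggagtCGgcag
4930581F22Rik (overlaps St3gal4; chr9:35116737-35116766, plus strand): CGcagctcCGatcCGttaggCGcccCGact
Chst15 (overlaps Gm10584; chr7:132317098-132317127, minus strand): gggtgctaggCGCGgggctgggCGCGCGct
1700049J03Rik (overlaps Ergic1; chr17:26561564-26561593, minus strand): gagCGttgcaggccaggCGggcCGcagCGc
Uros (overlaps Bccip; chr7:133709435-133709464, minus strand): tcctccacctcatcctcttcttcttcttcc
CG occurred 3, 5, 5, 4 and 0 times in these stretches, in the order shown. Over all RefSeq windows, 52.6% of 30-base stretches held the letters CG, which read the same on both strands. The Uros stretch alone among the 5 has no CG. Across the 42 windows that held a peak in overlapping spans, the median G+C content was 65.7% and the median number of CG was 28. The 241 windows that held a peak in exactly 1 protein-coding span had medians of 68.3% and 31, and all 32851 windows had 52.7% and 7. These are descriptions of the DNA around annotated starts, and the strand of the RNA is unknown.

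Coding genes paired with lncRNA genes were the most common type. Such pairs held 298 of the 535 peaks, or 55.8% ± 1.44 per library (SD, n = 3), in 177 sets of genes. Pairs of protein-coding genes held 198 peaks (37.0% ± 1.03, SD, n = 3) in 105 sets. Small RNA genes inside coding spans held 17 peaks (3.18% ± 0.501, SD, n = 3), and pairs with other loci, all of them pseudogenes, held 22 (4.10% ± 0.120, SD, n = 3). The shares of the lncRNA type ran from 54.1% to 56.8% and those of the coding type from 36.3% to 38.1%, without overlap. Of all peaks, 513 lay in exactly 2 spans and 18 in 3. The remaining 4 lay in 9 or more, up to 21 spans, in the Ugt1a cluster and a protocadherin cluster, whose genes share their last exons. Predicted loci (symbols of the form Gm or LOC with a number, or ending in Rik) were among the genes of 373 peaks (69.7%), and leaving those loci out kept 2.05% ± 0.181 of all peaks (SD, n = 3) in overlapping spans. The type shares then changed to 74.3% ± 5.23 for coding with coding and 14.8% ± 4.65 for coding with lncRNA (SD, n = 3).

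The area that each type covers differed from its share of peaks. Overlapping spans with a coding gene covered 60.3 Mb, or 5.84% of all protein-coding span bases, and they held 7.49% ± 0.380 of the peaks in protein-coding spans (SD, n = 3). Peak density was 3.15, 3.22 and 2.51 per Mb in replicates 1, 2 and 3, against 2.50, 2.32 and 1.97 in stretches of exactly 1 coding span. The ratio was 1.31 ± 0.0717 (SD, n = 3) and above 1 in all 3 libraries (exact paired sign-flip permutation of the difference over libraries, two-sided, p = 0.25). With 3 libraries this test cannot go below 0.25, here and below. Overlaps of coding with coding genes made up 19.6% of the overlapping bases and held 5.58 ± 0.832 peaks per Mb (SD, n = 3), 2.46 ± 0.205 times the density of single coding spans. Overlaps of coding with lncRNA genes made up 73.2% of the bases and held 2.25 ± 0.283 peaks per Mb, with a ratio of 0.994 ± 0.0284 (SD, n = 3). The density of coding with coding overlaps was higher than that of lncRNA overlaps in all 3 libraries (exact permutation, p = 0.25). Density over bases takes no account of exons or of which genes are transcribed, and their part in the difference was not tested.

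**Figure D1:**
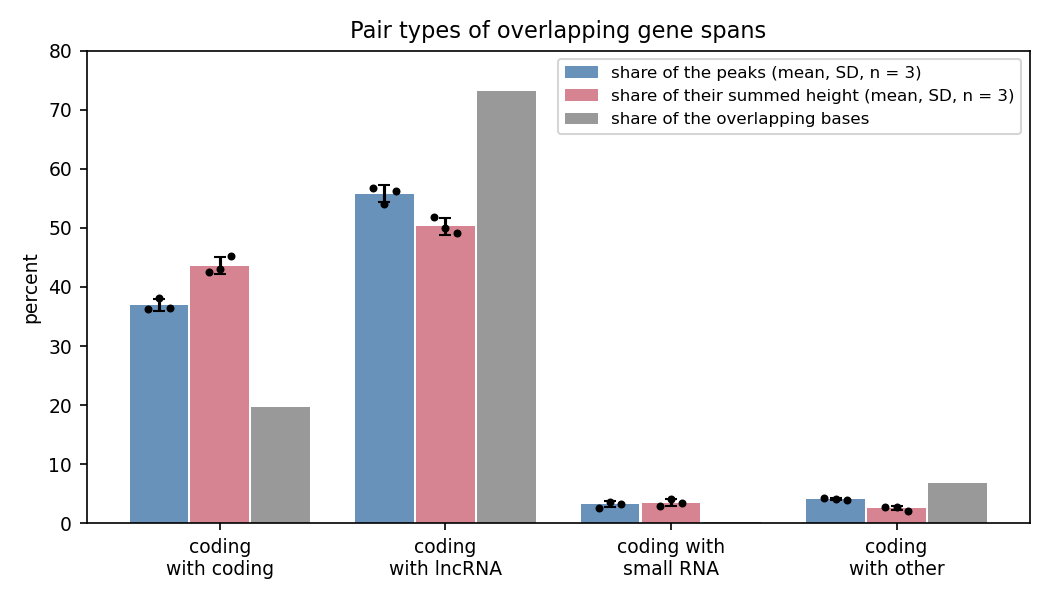
Share of the peaks in overlapping spans (blue), of their summed height (red) and of the overlapping bases (grey) by pair type, in percent; bars are means of 3 libraries with SD, and points are libraries. Coding with lncRNA overlaps hold 73.2% of the bases and 55.8% of the peaks, and coding with coding overlaps hold 19.6% of the bases and 37.0% of the peaks.

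Heights in overlapping spans were close to those in single coding spans, but for the mean this held only with 1 tall site included. The peaks took 5.55%, 5.71% and 5.50% of the summed height in replicates 1, 2 and 3, below their share of peaks in every library (mean difference -0.939 ± 0.25 percentage points, SD, n = 3, exact paired permutation p = 0.25). That shortfall is against all peaks of a library, those outside coding spans included. It is not particular to overlapping spans, since single coding spans, at the mean height given below, fall short too. Their median height was 4, 4 and 3 units, against 4 in each library for single coding spans. The mean height was 5.54 ± 0.138 units against 5.35 ± 0.153 (SD, n = 3), a difference of 0.186 ± 0.282 that turned sign between libraries. Without the Cmss1/Filip1l site, chosen after its height was seen, the mean fell below that of single spans in all 3 libraries, to 4.81 ± 0.130 units (difference -0.542 ± 0.192, exact permutation p = 0.25). No tall peak was taken out of the single spans for this comparison. Peaks of 10 units or more made up 8.21% ± 0.240 of the peaks in overlapping spans and 8.28% ± 0.939 of those in single coding spans (SD, n = 3). Median widths were 54, 55 and 60 nt against 55 in each library. Median height by type was 5.33 ± 0.577 units for small RNA pairs, 4.00 ± 0.00 for lncRNA pairs, 3.50 ± 0.500 for coding pairs and 3.00 ± 0.00 for pairs with other loci (SD, n = 3).

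Taller peaks were found again more often, inside and outside overlaps. Of peaks in overlapping spans, 30.3%, 32.7% and 38.4% in replicates 1, 2 and 3 overlapped a peak of another given library by at least 1 nt. The shares for single coding spans were 30.4%, 34.0% and 37.4%, and the difference was -0.124 ± 1.14 percentage points (SD, n = 3, exact paired permutation p = 0.75). At 4 units or fewer the shares were 24.4% ± 3.73 and 22.7% ± 2.98, at 5 to 9 units 45.8% ± 13.0 and 49% ± 8.04, and at 10 units or more 74.7% ± 3.66 and 74.7% ± 1.01 (SD, n = 3). The spread at 5 to 9 units came from replicate 3, at 60.6% against 36.4% and 40.2%. By type, the share found again was 60.0% ± 10.0 for small RNA pairs, from 17 peaks, 36.8% ± 5.24 for pairs with other loci, 33.4% ± 5.01 for lncRNA pairs and 31.9% ± 3.26 for coding pairs (SD, n = 3). Merging overlapping peaks gave 396 loci, of which 40 (10.1%, exact 95% interval 7.31 to 13.5) were present in every library. Another 63 loci were in 2 libraries and 293 in 1. The background over all loci was 11.1%, and over loci in exactly 1 coding span it was 10.7%, so the share in overlapping spans stood near both. The interval covers counting error only.

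**Figure D2:**
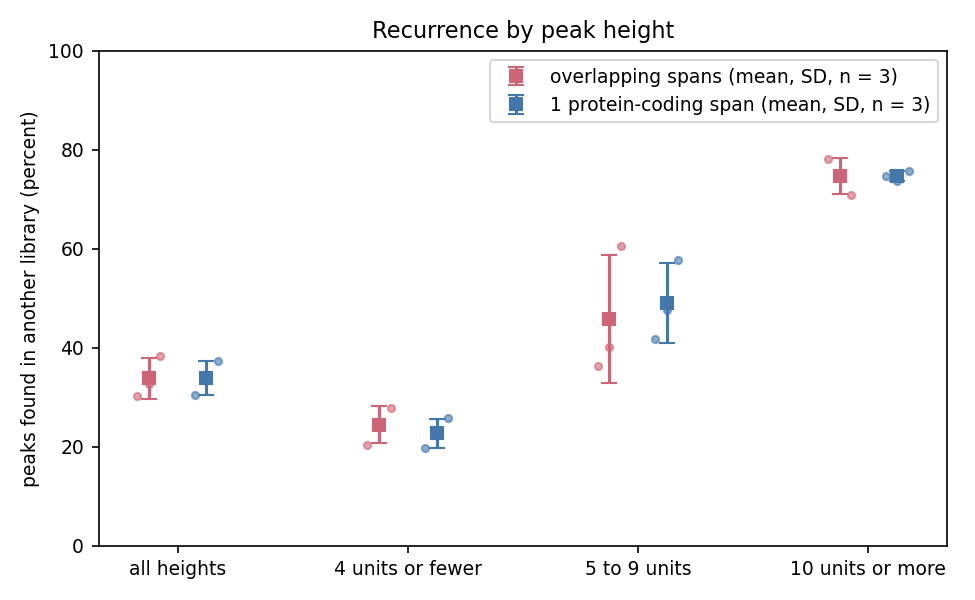
Percent of peaks that overlap a peak of another given library, by peak height, for peaks in overlapping spans (red) and in exactly 1 protein-coding span (blue); squares and bars are means and SD of 3 libraries, and small points are libraries. In both sets the share rises with height, to 74.7% at 10 units or more, and the SD of the sets overlap in every height class.

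When loci at most 100 nt apart were joined, a setting added after seeing the data, 368 sites resulted and 50 (13.6%) were present in all 3 libraries, in 46 sets of genes. Joined in the same way, 13.5% of sites in exactly 1 coding span and 14.7% of all sites were, so the share stood near both. Of 21 sites that reached 10 units in any library, 20 were present in all 3, beside 233 of 282 (82.6%) in exactly 1 coding span and 86.5% of all such sites. The difference was not tested. The exception was Col15a1/Gm52732, with 13 units in replicate 2 and no peak in the others. Of the 50 sites, 26 were of the lncRNA type, 19 of the coding type, 3 of the small RNA type and 2 of the other type. Of the 44 with a coding gene of known strand, 18 lay within 500 nt of the 5′ end of such a gene and 3 within 500 nt of its 3′ end. Among all peaks in overlapping spans with such a gene, the shares were 32.0% ± 2.06 and 7.27% ± 1.53 (SD, n = 3). Sites and peaks are unlike units, and the 2 were not tested against each other. Ends of coding genes without a listed strand were not scored.

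**Figure D3:**
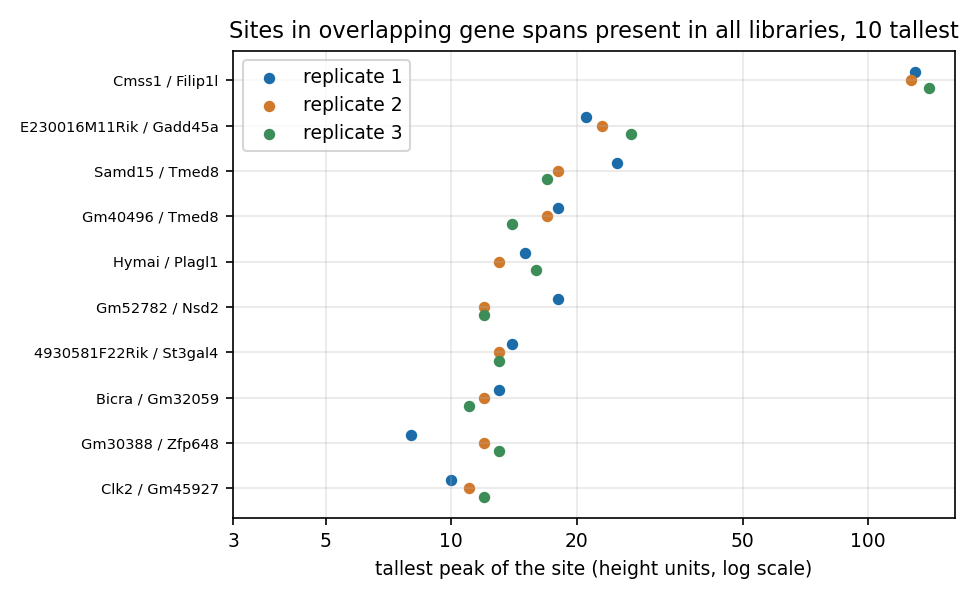
Height of the tallest peak, in units on a log scale, in each of the 3 libraries (colours) for the 10 sites with the highest mean among those present in all libraries; each row is a site, named by its overlapping genes. The Cmss1/Filip1l site lies at 127 to 140 units and every other site at 27 units or below.

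The arrangement of genes could be read where the strand of both was listed, which held for 350 of the 513 peaks in exactly 2 spans. Head-to-head pairs held 144 of these (41.1%), nested pairs on opposite strands 106 (30.3%), tail-to-tail pairs 50 (14.3%) and pairs on the same strand 50 (14.3%). The share of overlapping bases in each arrangement was not computed, so these counts do not show that any arrangement was favoured. The median stretch of overlap was 1322.5 nt at head-to-head pairs and 5577 nt at tail-to-tail pairs. Among loci, 12 of 103 in head-to-head pairs (11.7%) were in all 3 libraries, with 3 of 36 (8.33%) in tail-to-tail, 7 of 84 (8.33%) in opposite nested and 3 of 38 (7.89%) in same-strand pairs. These shares were not tested against each other, and all stand near the background of 11.1%.

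Near the start of a coding gene, overlapping spans had a larger share of their peaks and of their bases than single coding spans. The shares of peaks were not tested against those of bases. Of the peaks in overlapping spans, 461 had a coding gene with a listed strand. Among these, 34.2%, 31.7% and 30.1% lay within 500 nt of a coding 5′ end in replicates 1, 2 and 3. In single spans the shares were 23.2%, 23.0% and 25.2%, a difference of 8.21 ± 3.06 percentage points (SD, n = 3, higher in 3 of 3 libraries, exact paired permutation p = 0.25). The annotation differs too, since 2.27% of overlapping bases and 0.993% of single-span bases lie that close to a coding 5′ end, and a coding pair has the ends of both genes. Coding with lncRNA pairs, which bring 1 set of coding ends, had 28.4% ± 6.25, and their difference from single spans was 4.63 ± 6.43 (SD, n = 3, exact permutation p = 0.50), within the spread. Of the bases in coding with lncRNA overlaps, 1.43% lie within 500 nt of a coding 5′ end, also above the 0.993% of single spans. Within 500 nt of a coding 3′ end lay 7.27% ± 1.53 of the peaks, against 3.79% ± 0.335 in single spans (SD, n = 3, higher in 3 of 3 libraries, exact permutation p = 0.25). The annotation differs here as well, with 2.14% of overlapping bases and 1.0% of single-span bases that close to a coding 3′ end. Coding pairs held most of these, 25 of 33 peaks. Coding with lncRNA pairs were below single spans in 3 of 3 libraries, at 3.11% ± 0.341 (difference -0.675 ± 0.125 points, SD, n = 3, exact permutation p = 0.25). Peaks near a coding 5′ end were found in another library more often than peaks over 500 nt from both ends, at 42.6% ± 3.58 and 28.1% ± 4.93 (SD, n = 3, difference 14.5 ± 1.61 points, exact permutation p = 0.25). Near a coding 3′ end the share was 43.2% ± 13.1 (SD, n = 3), from 33 peaks, as high as near the 5′ end but with a wide spread. In single spans the shares near 5′ ends, near 3′ ends and over 500 nt from both were 40.6% ± 1.29, 31.5% ± 4.87 and 32.6% ± 3.97. All these shares pool peaks of every height, and taller peaks were found again more often. The part of height in the differences between zones was not tested.

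**Figure D4:**
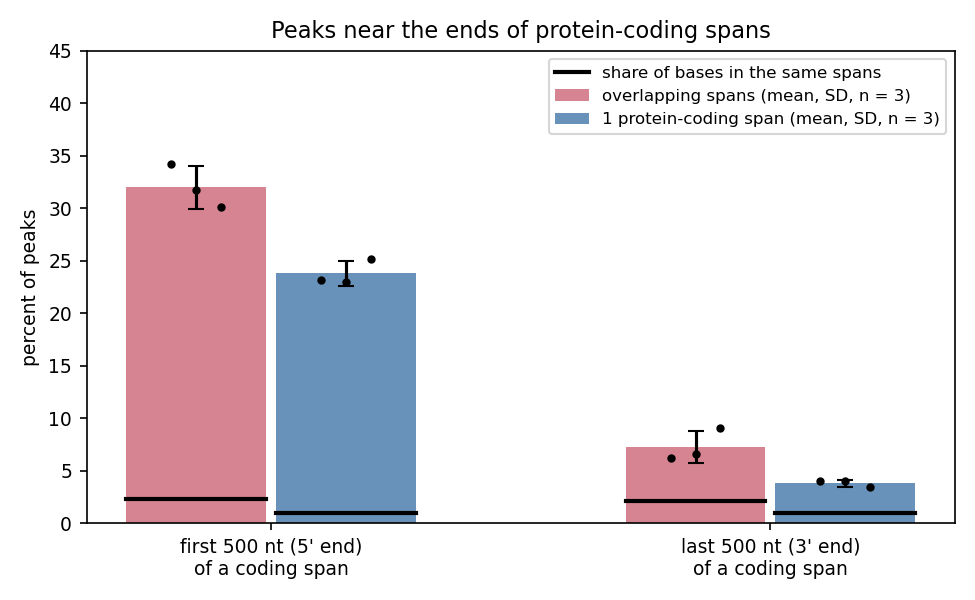
Percent of peaks in the first or last 500 nt of a protein-coding span, for peaks in overlapping spans (red) and in exactly 1 coding span (blue); bars are means of 3 libraries with SD, points are libraries, and black lines mark the share of bases. The 5′ bars stand at 32.0% and 23.8%, and the 3′ bars at 7.27% and 3.79%.

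Among pairs of coding genes, the tallest site lay where Filip1l is nested on the opposite strand inside Cmss1. It stood at 130, 127 and 140 units in replicates 1, 2 and 3, but the 3 peaks were 1, 1 and 3 nt wide and did not overlap. They fell at chr16:57391521, chr16:57391519 and chr16:57391485-57391487, so by overlap this site counts as 3 loci of 1 library each. It lies 38209 nt from the start of Filip1l and 215381 nt from that of Cmss1, over 500 nt from every end of both genes. How many places of the genome its reads match was not analysed here.

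The other coding pairs had far lower sites. Tmed8, a gene of the p24 trafficking family, overlaps Samd15 head to head, and a site 332 nt from the Tmed8 5′ end reached 25, 18 and 17 units. Replicate 1 was the highest there, and its peak was 1 nt wide. A second Tmed8 site, of the lncRNA type, 18990 nt from that end and inside the nested gene Gm40496, reached 18, 17 and 14 units with the same 7 nt (chr12:87181464-87181470) in every library. Nsd2, a histone H3 lysine 36 methyltransferase, holds the predicted gene Gm52782 within its span, and the pair held 18, 12 and 12 units at chr5:33821017-33821055, 166 nt from the 3′ end of Gm52782. Rspry1 with LOC115486880 held 7, 9 and 9 units, 213 nt from the Rspry1 5′ end.

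Several coding pairs joined well-known genes. Cdk2, a cell cycle kinase, and Pmel, a melanosome protein, shared a site of 9, 8 and 5 units, 186 nt from the Cdk2 5′ end. Hic1, a transcriptional repressor, and Smg6, the endonuclease of nonsense-mediated decay, overlap tail to tail, and their site held 6, 8 and 7 units. It lies 1335 nt from the Smg6 3′ end and 1736 nt from that of Hic1. Nr1d1, the clock repressor Rev-erb alpha, and Thra, thyroid hormone receptor alpha, are a textbook antisense pair. Their overlap of 1075 nt held 3, 4 and 5 units, 253 nt from the Nr1d1 3′ end. Fermt3, the integrin activator kindlin-3 of blood cells, and Trpt1, a tRNA phosphotransferase, also meet tail to tail. Their site held 6, 7 and 3 units, 219 nt from the Fermt3 3′ end.

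Pfn1, the actin-binding profilin, overlaps Eno3, muscle enolase, and the pair held 1, 2 and 3 peaks. Its site at chr11:70653827-70653929 held 4, 3 and 3 units in the libraries in order, and a second site held 0, 5 and 7. Bccip, a BRCA2-interacting protein, and Uros, an enzyme of haem synthesis, held 3, 3 and 4 units, 128 nt from the Bccip 5′ end. Kdm5a, a histone H3 lysine 4 demethylase, and Ccdc77 overlap by only 271 nt, and the site there held 4, 4 and 3 units. The Bccip/Uros and Ccdc77/Kdm5a sites had an SD of 0.577 units each (n = 3). The lowest peaks of the libraries stood at 2, 2 and 3 units in order, so sites this low had little room to differ. Sites of 2 libraries included Mfsd11/Srsf2, the latter a splicing factor, at 7, 0 and 3 units, and Nr4a2, an orphan nuclear receptor, with LOC105244150 at 6, 0 and 5.

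Some coding pairs are annotated readthrough genes, which share strand and sequence with the gene they run through. Clk2, a kinase of splicing factors, lies wholly inside Gm45927, listed with the synonym Clk2-scamp3. The pair held 7 peaks, and its tallest site 247 nt from the shared 5′ end reached 10, 11 and 12 units. A lower site 2247 nt from that end held 6, 3 and 3. Rbm14, an RNA-binding coactivator, lies inside Gm21992 (synonym Rbm14-rbm4) and held 5, 4 and 3 units at chr19:4802591-4802666. Prnp, the prion protein gene, and Prn share strand and 5′ end and held 3 units in every library, in peaks that did not overlap. At these 3 pairs strand would not separate the genes either. Txnl4a, a protein of the U5 spliceosomal particle, and Gm16286, whose strands were not both listed, held sites of 4, 6 and 5 and of 3, 5 and 5 units.

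Among coding genes with lncRNA partners, 3 of the tallest sites lay near a coding 5′ end, where 28.4% ± 6.25 of the peaks of this type lay (SD, n = 3). Another 68.5% ± 6.20 lay over 500 nt from both ends. Gadd45a, a stress gene induced by DNA damage, overlaps E230016M11Rik head to head by 809 nt. Its site 290 nt from the Gadd45a 5′ end reached 21, 23 and 27 units, the tallest of this type. The peak of replicate 3 (chr6:67037116-67037119) did not overlap those of replicates 1 and 2, which begin at 67037123. Plagl1, an imprinted zinc finger gene, and Hymai, the imprinted lncRNA on the same strand, start close to each other and held 15, 13 and 16 units, 129 nt from the Plagl1 5′ end. St3gal4, a sialyltransferase, overlaps 4930581F22Rik by 137 nt, and their site held 14, 13 and 13 units. The peaks were 2, 1 and 63 nt wide in replicates 1, 2 and 3, and these heights are those of whole peaks. The only base common to them, the 15th of the sequence above, lies 113 nt from the St3gal4 5′ end and 23 nt from that of the lncRNA. The SDs of these 3 sites were 3.06, 1.53 and 0.577 units (n = 3), and no library was highest at all of them.

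Regulators of blood cells and chromatin were among these pairs. Pim1, a kinase downstream of cytokine receptors, overlaps Gm26885 head to head by 760 nt and held 8 peaks (3, 3 and 2 in the replicates), the joint highest number of any pair. A site 40 nt from the Pim1 5′ end held 11, 7 and 10 units. The next, 339 nt from it, held 13, 3 and 5 with replicate 1 far above the others, and another held 7, 5 and 0. Gata2, a GATA factor needed in mast cells, overlaps Gm38708 by 4394 nt at its start and also held 8 peaks (3, 3 and 2). Its sites 91 and 488 nt from the Gata2 5′ end held 6, 8 and 6 and 6, 10 and 9 units. Another site at chr6:88197482-88197579 held 6, 4 and 0. Mta2, a subunit of the NuRD complex, with Gm10353 held 11, 10 and 4 units 69 nt from its 5′ end. Ankrd11, a chromatin-associated regulator, overlaps Gm39273 tail to tail, and its site of 6, 10 and 10 units lies 9946 nt from the Ankrd11 3′ end. Gata1, the erythroid and mast cell factor, with Gm39488 and Gm52419, held 0, 5 and 5.

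Further lncRNA pairs also had a site in every library. Bicra, a subunit of a BAF chromatin remodelling complex, with Gm32059 held 13, 12 and 11 units, and Zfp648 with Gm30388 held 8, 12 and 13. The Zfp648 peaks did not overlap between libraries and form a site only by the joining within 100 nt. Thsd4 with Gm51679 held 12, 9 and 7, and Slc22a29 with Gm41804 held 7, 7 and 9. Rbbp6, a ubiquitin ligase, with 4930413G21Rik held 7, 7 and 5 units with the same 50 nt in every library. H2-Oa, a chain of the class II modulator H2-O, with BC051537 held 10, 4 and 3, a site led by replicate 1. Atp6v0b, a proton pump subunit, with Gm12841 held 4, 8 and 3.

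A further group of lncRNA pairs, Cpa3 and Gse1 among them, stood at 6 units or below. Cpa3, the mast cell carboxypeptidase, lies with Gm31320 and the pseudogene Gm7428 and held 4, 5 and 4 units at chr3:20224535-20224576. Alox5, the enzyme that starts leukotriene synthesis, with Gm38880 nested inside it held 5, 3 and 4. Of the 8 mast cell markers with a peak of any kind, 2 had 1 in overlapping spans, Gata2 and Cpa3, beside 418 of 3086 (13.5%) over all coding genes with a peak. The list is too short to read more from it. Gse1, a chromatin corepressor-associated protein, holds the nested lncRNA gene Gm51556, and their 7 peaks (1, 3 and 3) included the same 4 nt, chr8:120487499-120487502, at 4 units in every library. Lrch4, a leucine-rich repeat protein, with the readthrough entry Gm20605 (synonym Lrch4-sap25) held 7 peaks (3, 3 and 1), none of them at a site shared by all libraries. Chst15, a sulfotransferase, with Gm10584 held 3, 5 and 6 units within the window of an internal start of Chst15, 86 nt before it. Ergic1, a membrane protein of the early secretory pathway, with 1700049J03Rik held 3 units in each library.

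Small RNA genes inside coding spans formed 9 sets, and 3 of them had a peak in all libraries. Rnu3b1, Rnu3b2 and Rnu3b4, genes for U3, the small nucleolar RNA that guides early cleavage of the ribosomal precursor, lie within the span of Tex14, a gene of germ cell bridges. The Rnu3b1 site held 12, 9 and 8 units, and the replicate 1 peak did not overlap the others. Rnu3b2 held 7, 11 and 8 units over nearly the same bases, and Rnu3b4 held 0, 4 and 3. These are copies of 1 RNA, and the division of reads among them was not examined. Snord23, a nucleolar RNA inside Nop53, a ribosome assembly factor, held 5, 6 and 4 units, and in replicate 1 the peak covered 89 nt of its 99. Rn4.5s with Gm40369 held 4, 4 and 0 units. A peak of 4 units lay in the transfer RNA gene n-TDgtc3 within Fcgr3, an Fc receptor gene, in replicate 2 alone.

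A pair of microRNA genes were in this group, each with a peak in 1 library. Their mature sequences are shown because the peaks fall on them, with the seed (bases 2 to 8) in capitals, from RefSeq on GRCm38.p6.
mmu-miR-7036b-5p: aCGCGGGGuucucuguggaagc
mmu-miR-7036b-3p: uUCCUGGUgggccucggggucc
mmu-miR-7654-3p: cGAGCGGGagcgcgccucgucc
No seed is shared among these 3. Mir7036b lies in Add1, an adducin gene, and the peak of 6 units in replicate 3 (chr5:34574170-34574231) covered all 22 bases of the 3p form and 3 bases of the 5p form. It ran past the end of the hairpin, with 44 nt inside it. Mir7654 lies in Arglu1, and its peak of 3 units in replicate 1 covered all 22 bases of the 3p form. With 1 library each, neither site has a replicate check, and the peaks cannot be divided between hairpin and host RNA.

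Pairs of a coding gene with a pseudogene or another locus were low throughout. Peaks of every library were present in 2 of the 12 sets. Gm19067 within Ralyl held 4, 3 and 3 units with the same 21 nt (chr3:14150140-14150160) in each library, and Gm12481 within Fam221b held 3 in each. The tallest was Gm2518 with Taf6l, at 6 units in replicate 1 alone. Processed copies of ribosomal protein genes were among them, Rpl15-ps5 within Rsf1 at 4 units and Rplp2-ps1 within Wdr89 at 3, each in replicate 1 alone.

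Beside the 13.5% over all coding genes with a peak, 0 of 46 histone genes with a peak of any kind had 1 in overlapping spans, and of translation factor symbols 1 of 25 did (Eef2k, the kinase of elongation factor eEF2, at 5, 3 and 5 units). These counts describe the lists and were not tested. Of the 303 sets of overlapping genes, 53 were represented in all 3 libraries, 57 in 2 and 193 in 1, and 183 had a single peak.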

How the data were processed

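The authors deposited 1 table of peaks with, for each of 3 libraries, the normalized height as a signal value, which sums to 1 over each library. Per the submitters' processing notes, reads were processed with cutadapt 1.9 and STAR 2.4.0i on mm10. Per the labels' protocols, peaks came from a valley-seeking algorithm, and no source used here gives its settings. Peak lists were separate for each library, per the file headers. Heights were divided by their fixed step (whole to within 0.05 units for all peaks), so no depth in reads is known. Starts were read as 0-based and are printed 1-based. Spans came from 49980 RefSeq genes of GRCm38.p6, 21900 of them protein-coding, and strand from its promoter and microRNA tables, which listed 17492 (79.9%) of the coding genes. Each peak took its type by precedence: small RNA, coding with coding, coding with lncRNA, other. Values are means and SD over libraries, whose spread may be partly technical, since the labels name no separate animals. Differences were tested by exact paired sign-flip permutation over 3 libraries. No test over genes or random placements was made. The members and lists were chosen with earlier results of these data known. The rule named the 15 loci with the highest mean height, the 5 sets with the most peaks, up to 8 sets per type with the highest peak among those in 3 and then 2 libraries, all small RNA sets, and Gata2, Gse1, Cpa3, Pim1, Pfn1, Xist, Cmss1 and Filip1l where they qualify. Heights of joined sites are printed, and names beyond the rule were chosen after their values were seen. Counting was checked on simulated peaks. Python 3.11.15, pandas 2.3.3 and SciPy 1.17.1 were used. Some items that the naming rule selects are not reported here.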

Additional observations from a re-analysis of the deposited data

How the results depend on the processing

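Of 60 values recomputed under settings that kept all libraries, 30 moved by less than the spread between libraries (or the exact interval of the locus share). Reading starts as 1-based moved none of the 9 results beyond it. Without each library in turn, peaks in overlapping spans made up 6.32% to 6.64% of all peaks and 5.52% to 5.63% of the height. The type shares ran from 2.97% to 3.46% (small RNA), 36.4% to 37.3% (coding), 55.2% to 56.6% (lncRNA) and 4.05% to 4.17% (other). The share found in another library ran from 30.9% to 37.4%, the median height from 3.5 to 4 units, and loci in all libraries left from 18.3% to 22.7%, where 2 libraries sufficed. With peaks of at least 5 units, the shares of peaks and height were 6.08% and 5.03%, the types 5.71% (small RNA), 34.5% (coding), 58.2% (lncRNA) and 1.52% (other). The share found was then 39.9%, the median 6.67 units and loci in all libraries 14%. With the whole peak inside the spans, small RNA and other types were 2.46% and 3.46%. With any shared base, the shares of peaks and height were 6.91% and 5.88%, and the types 4.66% (small RNA), 54.2% (lncRNA) and 3.87% (other). Without predicted loci they were 2.05% and 2.21%, and the types 9.06% (small RNA), 74.3% (coding), 14.8% (lncRNA) and 1.83% (other); fewer spans counted there. Sharing by overlap of 50% of both peaks gave 23.6% found and 6.03% of loci, and midpoints within 200 nt gave 41.9% and 14%. Small RNA pairs were 2.68% with peaks of a single type, and other pairs 4.28% with exactly 2 spans. In settings added after seeing the data, the height share was 4.83% without Cmss1/Filip1l, and joining loci within 100 nt gave 13.6% in all libraries. Except where stated, the cause was not tested. No paired analysis was possible because the libraries form 1 group, so no replicate number links groups; the sign-flip tests pair values of the same library.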
